A study of Mus musculus with 10 samples.

Results

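A set of 9 genes of the C-type lectin superfamily, listed as myeloid lectin receptors, was followed through microglia of the mouse hippocampus. These were Clec7a, Clec5a, Clec4a1, Clec4a2, Clec4a3, Clec12a, Cd209a, Clec2d and Cd69. They were taken by gene symbol from the deposited table, as 9 of its 19782 genes. Microglia, the resident macrophages of the brain, were sorted as CD45low CD11b+ cells, and their RNA was sequenced from Smart-Seq libraries. For wild type, 4 libraries were made from animals kept on normal diet. On the same diet, the 5xFAD line was the source of 3 libraries (control). This line carries human amyloid precursor and presenilin transgenes with familial Alzheimer disease mutations, driven in neurons by the Thy1 promoter, and forms amyloid plaques. Another 3 libraries came from 5xFAD mice that received chow with 290 mg/kg PLX3397, an inhibitor of the CSF1 receptor that depletes microglia, for 1 month from an age of 4 months, and then normal diet for 1 month while microglia returned (repopulated). The labels do not give ages for the wild-type and control mice, or whether each library is a separate animal. The p-values therefore measure the spread between these samples, and that spread may be technical. All 3 repopulated libraries had both the drug and the return of microglia, so what follows from each cannot be told apart. A wild-type group fed PLX3397 was not analysed here, so whether a difference depends on the 5xFAD line cannot be told either.

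C-type lectin receptors are membrane proteins whose extracellular domain shares a fold first described in sugar-binding proteins, and many of them bind carbohydrates, lipids or other proteins. Some of them activate the cell through the kinase Syk, either by a tyrosine motif of their own, as in Clec7a, or through the adaptor proteins Tyrobp and Fcer1g. The adaptor Hcst, which can pair with some of the same receptors, recruits phosphoinositide 3-kinase instead. Others carry an inhibitory motif that recruits phosphatases such as Ptpn6. In the brain Clec7a is known as a marker of microglia that gather at amyloid plaques.

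Estimated counts per library ran from 18501136 to 23286814, and 12505 genes passed the filter on low counts. All 11 microglial markers were detected, with summed levels of 44272 to 63022 CPM (counts scaled to a common library size). Y-linked transcripts (4 genes) summed to 5.12 to 16.01 CPM of unscaled totals in control 1, control 3 and wild-type 2 and to at least 341.87 in the other 7 libraries, so that control 2 was the only control that had them. Wild-type 3 stood apart by its other cells: neuronal markers summed to 58.7 CPM there and erythrocyte markers to 281 CPM, against at most 11.7 and 20.7 CPM in the other wild-type libraries. Control 2 had the highest sums of the 3 controls for markers of border-associated macrophages (140.4 CPM), monocytes (45.7 CPM) and neutrophils (327 CPM). The same library had the highest control level of 7 of the 9 lectins and the lowest of Clec7a and Cd69. Repopulated 2 had the lowest level of its group for 7 of the 9. The matching shares over all genes were not computed, so these counts are not read as a trait of the lectins.

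In wild-type microglia the most abundant of these receptors was Clec4a3, and in both 5xFAD groups it was Clec7a. Levels of different genes are compared here in deposited TPM, which are scaled for gene length. Clec4a3 averaged 342 ± 50.9 TPM (SD, n = 4) in wild type, above Clec4a2 at 129 ± 10.4 and Clec5a at 127 ± 12.4 TPM, whose ranges overlapped each other. Clec7a (35.8 ± 17.1 TPM), Cd209a (26.5 ± 15 TPM) and Clec4a1 (26.2 ± 4.03 TPM) came next with overlapping ranges, then Clec12a at 9.33 ± 6.62 TPM. Cd69 and Clec2d were near 0, at 0.713 ± 1.15 and 0.247 ± 0.349 TPM.

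In control libraries Clec7a led with 554 ± 11.1 TPM (SD, n = 3), above Clec4a3 at 161 ± 42.2, Clec5a at 113 ± 8.53 and Clec4a2 at 55 ± 19 TPM. The last of these overlapped with Cd209a at 41.6 ± 24.9 TPM. Lower still were Clec4a1 at 12.7 ± 5.9 TPM and Clec12a and Cd69, which overlapped at 4.59 ± 3.09 and 3.97 ± 1.36 TPM, with Clec2d last at 0.117 ± 0.111 TPM.

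Repopulated libraries kept the first 4 places in that order, with Clec7a at 384 ± 46.3, Clec4a3 at 170.2 ± 26.2, Clec5a at 106 ± 15.6 and Clec4a2 at 63.7 ± 10.6 TPM (SD, n = 3). Cd209a was in the seventh place, at 5.2 ± 0.705 TPM, and its range overlapped with those of Clec12a (5.28 ± 1.38 TPM) and Cd69 (3.03 ± 1.39 TPM). Clec4a1 averaged 10.5 ± 4.28 TPM and overlapped with Clec12a, and Clec2d was again last at 0.287 ± 0.225 TPM. As a share of the summed TPM of all 9 genes, Clec7a made up 3.26% to 8.02% in wild-type, 52% to 63.5% in control and 50.1% to 52.3% in repopulated libraries. The share of Clec4a3 was 46.1% to 54.3%, 14.9% to 19.8% and 21.8% to 23.4% in the same order. The shares of these 2 genes did not overlap between wild type and either 5xFAD group.

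**Figure D1:**
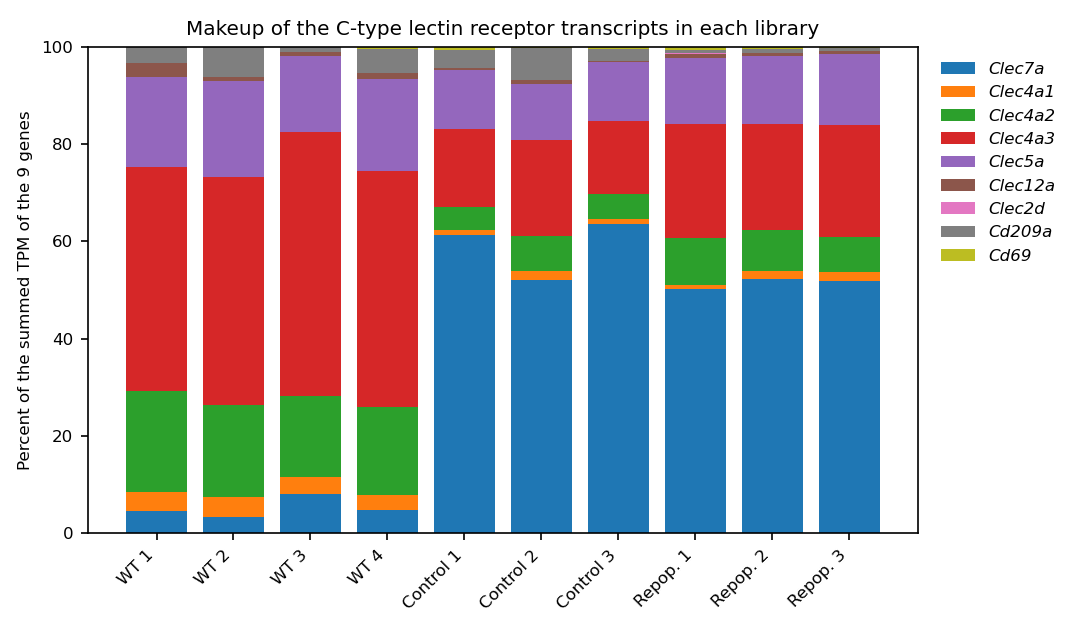
Share of the summed TPM of the 9 C-type lectin receptor genes (y axis, percent) held by each gene in each of the 10 libraries (x axis). Clec4a3 holds the largest share in the 4 wild-type libraries and Clec7a in all 6 libraries of 5xFAD mice.

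Between control and wild-type microglia 2 of the lectins rose, Clec7a and Cd69, and 2 fell, Clec4a2 and Clec4a3, among the 8 that passed the filter. Clec2d did not pass. Of all genes tested 10.1% rose and 8.04% fell in this comparison at an edgeR adjusted p under 0.05 (18.1% in either direction). With upper-quartile scaling 1 lectin rose, since the adjusted p of Cd69 was then 0.0506, and 2 fell. The same 4 genes were those whose libraries did not overlap between the groups, beside 14.1% of all tested genes with every control library higher and 12.6% with every control library lower (26.7% in either direction). The median log2 fold change of the 8 lectins was -0.21, against -0.06 over all tested genes.

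Between repopulated and control microglia Cd209a fell and the other 7 tested lectins did not pass. In this comparison 0.352% of all tested genes rose and 0.216% fell (0.568% in either direction). Clec7a and Cd209a did not overlap between the groups, both with every repopulated library lower, as in 15.7% of all tested genes (30.6% did not overlap in either direction). The median log2 fold change of the 8 lectins was -0.32, against -0.00 over all tested genes.

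Between repopulated and wild-type microglia Clec7a rose and Clec4a2, Clec4a3 and Cd209a fell. Of all tested genes 3.4% rose and 0.784% fell here (4.18% in either direction). Every repopulated library was higher than every wild-type library for Clec7a, as in 9.12% of all tested genes, and lower for Clec4a1, Clec4a2, Clec4a3 and Cd209a, as in 6.81% (15.9% in either direction). The median log2 fold change was -0.71, against -0.02. Each pair of these 3 comparisons shares a group of libraries, so their values stand side by side below and are not independent of each other.

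**Figure D2:**
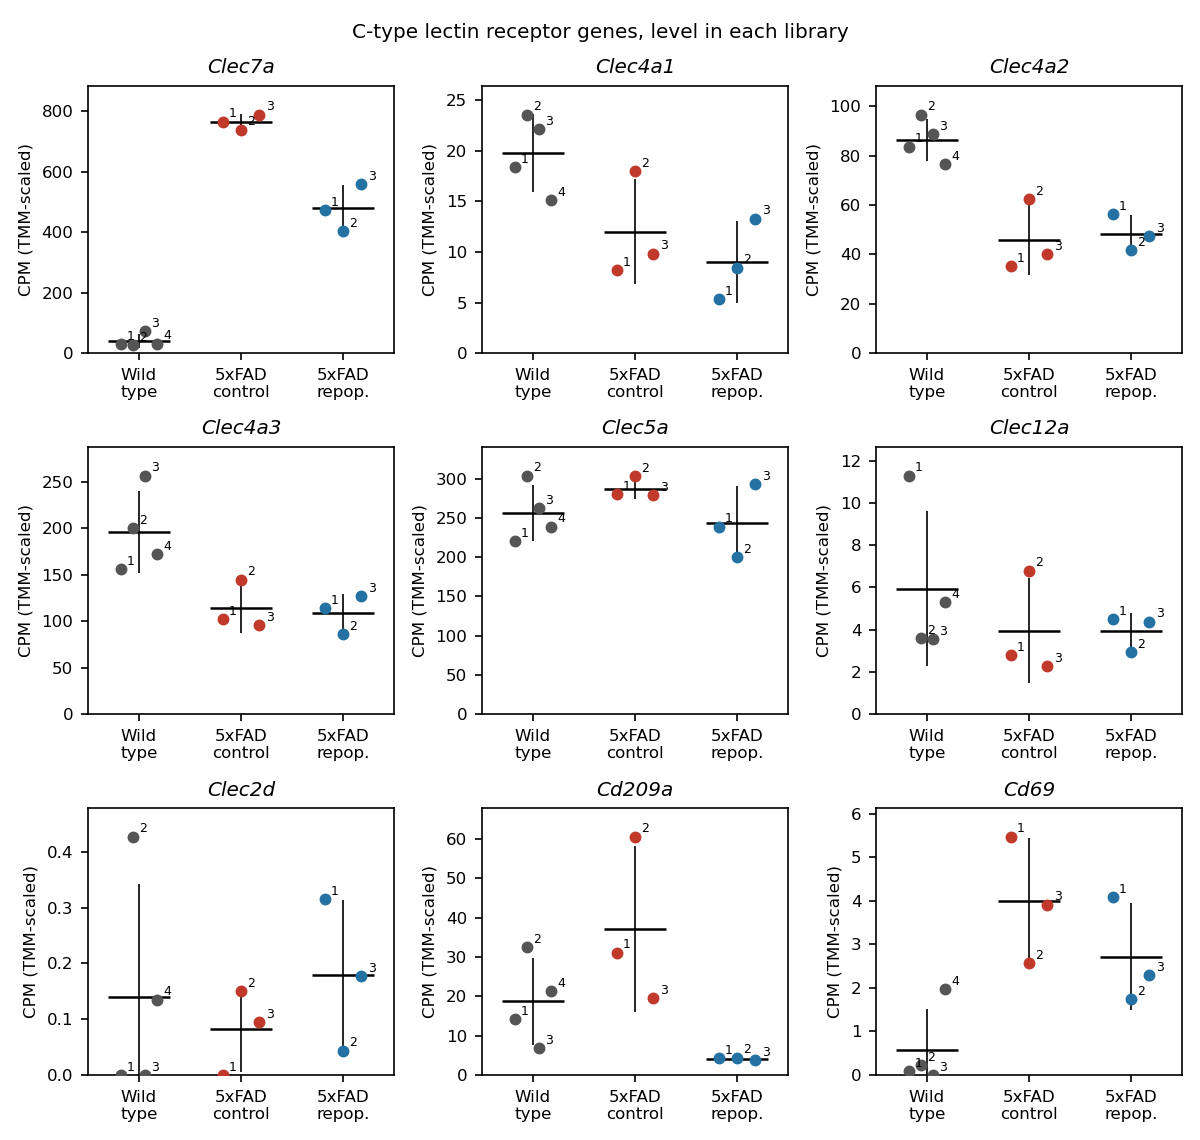
TMM-scaled CPM (y axis of each panel) of each of the 9 genes in every library; dots are libraries numbered by replicate, lines are group means and bars are the SD, cut at 0. Clec7a is at 27 to 72.7 CPM in wild type and at 404 or above in the libraries of 5xFAD mice, and Cd209a is at 3.71 to 4.42 CPM in the repopulated libraries.

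**Figure D3:**
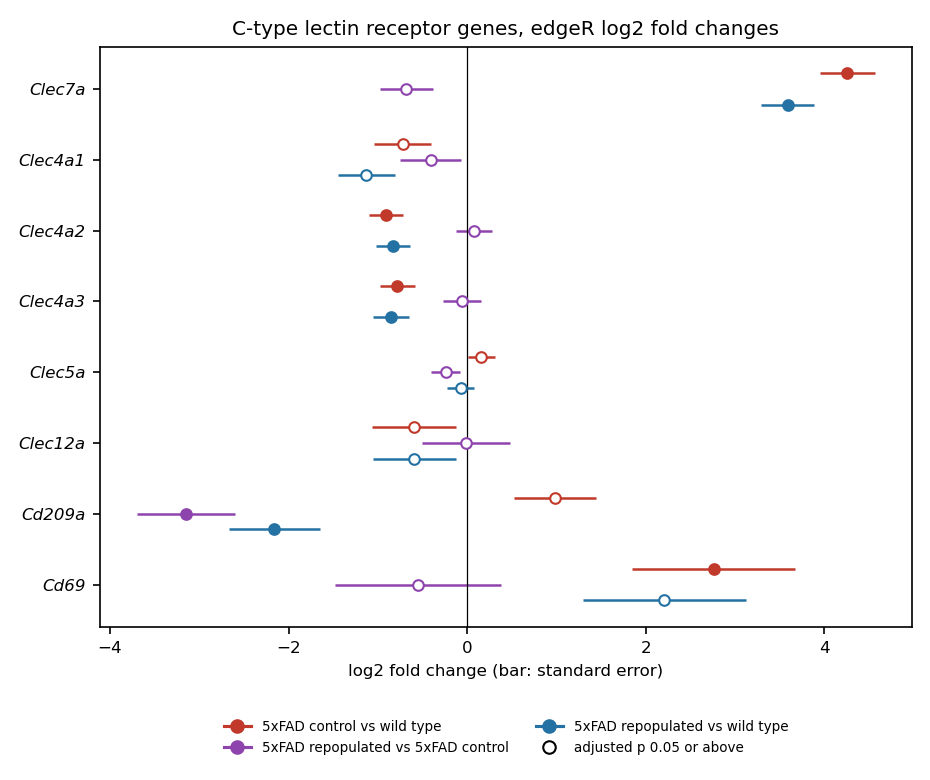
log2 fold change (x axis) of each tested lectin (y axis) in the 3 comparisons, with the standard error as bar; open symbols have an edgeR adjusted p of 0.05 or more. The values run from 4.26 for Clec7a between control and wild type to -3.15 for Cd209a between repopulated and control.

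Among the activating receptors, Clec7a encodes dectin-1, which binds fungal beta-glucans and signals through Syk (Entrez 56644, chromosome 6, 129461591 to 129472785, minus strand, GRCm38.p6). Its level was 28.7, 27, 72.7 and 31.3 CPM in wild-type 1 to 4, then 766, 739.6 and 789 CPM in control 1 to 3, and 473, 404 and 559 CPM in repopulated 1 to 3. The 3 groups did not overlap: wild type was lowest, control highest and repopulated between them. Control libraries averaged 765 ± 24.9 CPM (SD, n = 3), which was 19.2-fold above the 39.9 ± 21.9 CPM (n = 4) of wild type (log2 fold change 4.26, SE 0.31, edgeR adjusted p = 6.93e-07). Repopulated libraries averaged 479 ± 77.8 CPM, 12-fold above wild type (log2 fold change 3.59, SE 0.30, edgeR adjusted p = 4.5e-06). Both calls held under all 20 alternatives tried. The difference between repopulated and control was -0.68 on the log2 scale (SE 0.30, edgeR adjusted p = 0.249) and did not pass, although the groups did not overlap. It passed without wild-type 3 (adjusted p = 0.0292), the wild-type library with the highest Clec7a, and when only these 2 groups were fitted (adjusted p = 0.0257). In RNA from sorted cells in bulk, a change in the number of cells of a type and a change in RNA per cell cannot be told apart, which applies to every gene below.

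Clec5a, which encodes a receptor that signals through the adaptors Tyrobp and Hcst (Entrez 23845, chromosome 6, 40574898 to 40585805, minus strand), had 221, 304, 263 and 239 CPM in the wild-type libraries. The control libraries had 280.4, 303 and 279 CPM, and the repopulated libraries 239, 200.4 and 293 CPM. All 3 groups overlapped. Group means were 257 ± 36.1, 288 ± 13.6 and 244 ± 46.5 CPM, and no comparison passed (log2 fold change 0.16 for control against wild type, SE 0.15, edgeR adjusted p = 0.477; -0.24 for repopulated against control, SE 0.16, adjusted p = 0.454; -0.07 for repopulated against wild type, SE 0.15, adjusted p = 0.89). Of the 8 tested lectins Clec5a had the smallest fitted differences from wild type in both 5xFAD groups.

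Clec4a1, Clec4a3 and Clec4a2 lie in this order, all on the plus strand, within 222 kb of chromosome 6 (122921848 to 123143999). They encode members of the dendritic cell immunoreceptor family, and Clec4a2 carries an inhibitory tyrosine motif. Because they are related neighbours of which 2 fell together in 5xFAD microglia, the 250 bases before the outermost annotated start of each are shown here from RefSeq (GRCm38.p6), 5′ to 3′ on the gene's strand, followed by the same stretch before Clec7a, which changed the other way. The positions are chr6:122921598-122921847 for Clec4a1, chr6:122952265-122952514 for Clec4a3 and chr6:123122440-123122689 for Clec4a2, all on the plus strand, and chr6:129472786-129473035 on the minus strand for Clec7a. Capitals mark a match to TGTGGT, the core letters bound by RUNX factors.
Clec4a1: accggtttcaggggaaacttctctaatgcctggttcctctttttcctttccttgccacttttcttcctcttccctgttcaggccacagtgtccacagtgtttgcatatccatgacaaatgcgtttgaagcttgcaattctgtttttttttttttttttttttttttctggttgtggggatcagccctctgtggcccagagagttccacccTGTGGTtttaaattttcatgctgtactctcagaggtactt
Clec4a3: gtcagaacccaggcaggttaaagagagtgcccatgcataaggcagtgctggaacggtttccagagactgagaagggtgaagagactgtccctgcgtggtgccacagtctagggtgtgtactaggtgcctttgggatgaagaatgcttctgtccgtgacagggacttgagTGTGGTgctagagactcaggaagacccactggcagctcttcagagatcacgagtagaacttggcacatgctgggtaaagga
Clec4a2: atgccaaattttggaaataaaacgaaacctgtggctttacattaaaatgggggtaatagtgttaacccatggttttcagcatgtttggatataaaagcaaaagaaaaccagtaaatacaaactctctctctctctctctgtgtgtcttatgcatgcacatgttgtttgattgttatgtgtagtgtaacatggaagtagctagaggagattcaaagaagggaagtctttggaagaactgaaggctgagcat
Clec7a: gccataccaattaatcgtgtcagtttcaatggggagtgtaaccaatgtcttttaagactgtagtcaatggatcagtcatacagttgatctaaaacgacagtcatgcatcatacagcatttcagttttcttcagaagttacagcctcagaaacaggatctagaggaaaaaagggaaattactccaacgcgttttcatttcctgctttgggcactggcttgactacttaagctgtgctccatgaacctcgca

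Promoters were found for 8 of the 9 genes, counted from the outermost start that the promoter table gives. For Clec12a that start is a later one, and its window (chr6:129349994-129350243) lies inside the annotated gene, downstream of its first base; the other 7 windows end at the base before the gene. Searched on both strands, TGTGGT was present before Clec4a1 (ending 35 bases before the start), Clec4a3 (76 bases) and Clec5a (121 bases), in the window of Clec12a, and in 14.2% of 27025 promoters of the same length. It was absent from these windows of Clec4a2, Clec7a, Clec2d and Cd209a. The window of Clec12a, inside that gene, also held the AP-1 letters TGANTCA (6.85% of promoters) and the C/EBP letters TTGCNNAA (9.55%), and Clec2d held the core of the interferon response element (3.05%). The PU.1 letters GAGGAAGT (2.42%), the E-box CACGTG (6.04%) and the NF-kappa-B motif (1.41%) were in none of the 8 windows. No matches overlapped each other. These matches describe the letters and were not related to binding.

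Clec4a2 (Entrez 26888, chromosome 6, 123122690 to 123143999) had 83.7, 96.7, 88.7 and 76.5 CPM in the wild-type libraries, 35.4, 62.3 and 40.1 CPM in the controls and 56.3, 41.7 and 47.3 CPM in the repopulated libraries. Every wild-type library was above every 5xFAD library, and the 5xFAD groups overlapped. Control libraries averaged 45.9 ± 14.3 CPM (SD, n = 3), 1.88-fold below the 86.4 ± 8.52 CPM (n = 4) of wild type (log2 fold change -0.91, SE 0.19, edgeR adjusted p = 0.00372). Repopulated libraries averaged 48.5 ± 7.35 CPM, 1.78-fold below wild type (log2 fold change -0.83, SE 0.19, edgeR adjusted p = 0.0176). Repopulated and control differed by 0.08 (SE 0.20, edgeR adjusted p = 0.876), with a sign that changed between alternatives. With only the libraries that had Y-linked transcripts, where control 2 stood alone for the controls, the first difference was -0.40 (adjusted p = 0.305), and the second lost its call without wild-type 2 (0.0539), repopulated 2 (0.122) or repopulated 3 (0.0891). The deposited counts of Clec4a2 were not whole numbers in 10 of 10 libraries, unlike those of the other 8 lectins (tolerance 0.001), so its reads may be shared with a related gene and its level is uncertain.

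Clec4a3 (Entrez 73149, chromosome 6, 122952515 to 122969878) had 156, 200.2, 257 and 172 CPM in the wild-type libraries, 102, 145 and 95.7 CPM in the controls and 114, 86.2 and 127 CPM in the repopulated libraries. As for Clec4a2, every wild-type library was above every 5xFAD library. The mean fell from 196 ± 44.4 CPM (SD, n = 4) to 114 ± 26.5 CPM in controls (n = 3), 1.72-fold (log2 fold change -0.78, SE 0.20, edgeR adjusted p = 0.0134). In repopulated libraries it was 109 ± 21.1 CPM, 1.8-fold below wild type (log2 fold change -0.85, SE 0.20, edgeR adjusted p = 0.0231). Repopulated and control differed by -0.06 (SE 0.21, edgeR adjusted p = 0.907), again with a sign that varied. The control call was lost without control 1 (adjusted p = 0.0699), without control 3 (0.0622) or where control 2 stood alone (-0.42, 0.423). The repopulated call was lost without wild-type 2 (0.0562), repopulated 1 (0.088) or repopulated 2 (0.157), and with only the libraries that had Y-linked transcripts (0.0795).

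Clec4a1 (Entrez 269799, chromosome 6, 122921848 to 122934619) had 18.4, 23.6, 22.2 and 15.1 CPM in the wild-type libraries, 8.23, 18 and 9.85 CPM in the controls and 5.3, 8.45 and 13.3 CPM in the repopulated libraries. Control 2 lay within the wild-type range and the other 5 libraries of 5xFAD mice lay below it. No comparison passed: the log2 fold change was -0.72 for control against wild type (SE 0.32, edgeR adjusted p = 0.133), -0.41 for repopulated against control (SE 0.34, adjusted p = 0.545) and -1.13 for repopulated against wild type (SE 0.32, adjusted p = 0.0672). The last difference passed in 7 of 20 alternatives, and the first passed without control 2 (-1.13, adjusted p = 0.0422).

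Clec12a encodes an inhibitory receptor that recognises uric acid crystals (Entrez 232413, chromosome 6, 129349783 to 129365303, plus strand). Its level was low in every group, with 3.55 to 11.3 CPM in wild type, 2.26 to 6.8 CPM in control and 2.93 to 4.5 CPM in repopulated libraries. Wild-type 1 and control 2 were the highest of their groups, and these had the highest monocyte marker sums of their groups as well, at 50.4 and 45.7 CPM; the part of those cells in Clec12a was not tested. Log2 fold changes were -0.59 (SE 0.47, edgeR adjusted p = 0.414), -0.01 (SE 0.49, adjusted p = 0.996) and -0.59 (SE 0.46, adjusted p = 0.638) for control against wild type, repopulated against control and repopulated against wild type.

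Cd209a, a mouse relative of the human dendritic cell receptor DC-SIGN that binds mannose-rich glycans (Entrez 170786, chromosome 8, 3743395 to 3748984, minus strand), was the lectin with the largest difference between the 5xFAD groups. It had 14.2, 32.6, 6.75 and 21.4 CPM in the wild-type libraries, 31.1, 60.6 and 19.6 CPM in the controls and 4.41, 4.42 and 3.71 CPM in the repopulated libraries. The repopulated libraries were the lowest of all 10 and differed by 1.19 times among themselves, while the wild-type libraries spanned 4.83 times and overlapped with the controls. Mean levels were 18.7 ± 11 CPM (SD, n = 4), 37.1 ± 21.2 CPM (n = 3) and 4.18 ± 0.405 CPM (n = 3). Repopulated libraries were 8.86-fold below control (log2 fold change -3.15, SE 0.55, edgeR adjusted p = 0.0351) and 4.48-fold below wild type (log2 fold change -2.16, SE 0.51, edgeR adjusted p = 0.0374). Control and wild type differed by 0.98 (SE 0.46, edgeR adjusted p = 0.166).

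Both calls of Cd209a kept their direction in all 20 alternatives but were lost in 9 of them. Against control, the adjusted p was 0.0518 without wild-type 4, 0.0836 without control 1, 0.0959 without control 2, 0.189, 0.267 and 0.096 without repopulated 1, 2 and 3, 0.0775 with limma-voom, 0.0767 with no filter and 0.109 with a term for Y-linked transcripts. Against wild type it was 0.0762 and 0.0729 without wild-type 1 and 4, 0.054 without control 1, 0.141, 0.172 and 0.164 without repopulated 1, 2 and 3, 0.215 with limma-voom, 0.163 with no filter and 0.0611 with that term. The difference between control and wild type passed without wild-type 2 (1.39, edgeR adjusted p = 0.035) and with a replicate block (1.14, adjusted p = 0.0244). Where control 2 stood alone for its group, this difference was 2.11.

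Markers of other cells that are known to express Cd209a or related lectins were read beside it. Such cells mostly have high CD45, and the CD45low CD11b+ gate is set to leave them out. The 8 markers of border-associated macrophages, all detected, summed to 73.2 to 123 CPM in wild type, 80.4 to 140.4 CPM in control and 65.7 to 109 CPM in repopulated libraries. Folr2 rose in both comparisons with wild type and no other marker was called in any comparison. Between repopulated and control 7 of the 8 had negative log2 fold changes, among them Lyve1 at -0.71, Ms4a7 at -0.65 and Mrc1 at -0.61, and the median was -0.35 against -0.00 over all tested genes. Against wild type the median was -0.54, against -0.02, and Cbr2 was lower in every repopulated library than in every wild-type library (log2 fold change -0.73, edgeR adjusted p = 0.156). Control 2 had the highest sum of the controls and also the highest Cd209a. Repopulated 1 and 2 had the lowest sums of all, 67.5 and 65.7 CPM, next to wild-type 3 with 73.2 CPM and 6.75 CPM of Cd209a. In contrast, repopulated 3 had a sum of 109 CPM, within the range of the other groups, and 3.71 CPM of Cd209a. The 10 dendritic cell markers summed to 48.3 to 59.7, 24.5 to 31.8 and 31.5 to 36.3 CPM, with Ccr7 at 0 to 0.27 CPM, Flt3 at 0 to 1.75 CPM and Batf3, the most abundant, at 9.71 to 19.7 CPM over all libraries. Batf3, Irf4 and Siglecg fell between control and wild type and Siglecg fell between repopulated and wild type, while none of the list was called between repopulated and control. Monocyte markers summed to 23.6 to 50.4, 21.8 to 45.7 and 21.8 to 27.2 CPM. How much of Cd209a came from any of these cells was not tested.

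Other lectins of the same kind, named after their values were seen, were set beside Cd209a. Cd209f had 16.3, 27.8 and 12.4 CPM in the controls and 7.66, 6.09 and 12.9 CPM in the repopulated libraries, and the groups overlapped (log2 fold change -1.09, edgeR adjusted p = 0.297). Mrc1, the mannose receptor, had a log2 fold change of -0.61 (adjusted p = 0.273), Mgl2 of -1.52 (adjusted p = 0.472) and Clec10a of -1.07 (adjusted p = 0.349) in the same edgeR comparison. Cd209g had -0.18 (adjusted p = 0.924), and Cd209c went the other way, with every repopulated library above every control library (log2 fold change 0.45, adjusted p = 0.322). Cd209b had -1.31 (adjusted p = 0.498). Cd209d did not pass the filter: it had 0.394, 1.11 and 0.66 CPM in the controls and no count in the repopulated libraries. Cd209a was the only gene of the Cd209 group called between repopulated and control, and whether its change differed from that of Cd209f or Mrc1 was not tested.

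**Figure D4:**
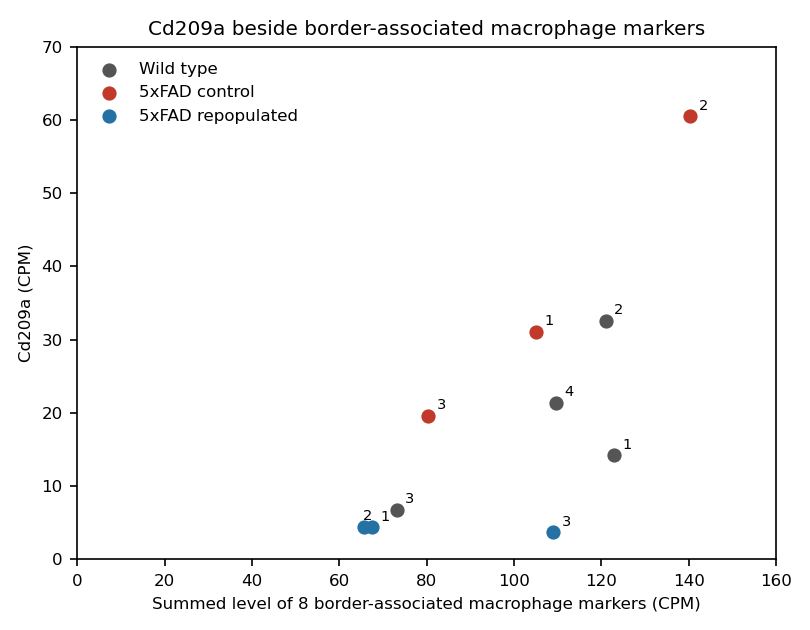
CPM of Cd209a (y axis) against the summed CPM of the 8 border-associated macrophage markers (x axis); dots are the 10 libraries, numbered by replicate and coloured by group. Repopulated libraries lie at 3.71 to 4.42 CPM of Cd209a over marker sums of 65.7 to 109 CPM, and control 2 has the highest value of both measures.

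Cd69, an early activation antigen that holds the receptor S1pr1 inside the cell (Entrez 12515, chromosome 6, 129267324 to 129275375), was counted with few reads: 2, 5, 0 and 44 in the wild-type libraries, 111, 51 and 83 in the controls and 91, 40 and 52 in the repopulated libraries. Levels were 0.0965, 0.237, 0 and 1.98 CPM, then 5.47, 2.57 and 3.91 CPM, and 4.09, 1.75 and 2.3 CPM. Control libraries were all above wild type, while repopulated 2 lay below wild-type 4. The mean rose 6.77-fold from 0.578 ± 0.938 CPM (SD, n = 4) to 3.98 ± 1.45 CPM (n = 3; log2 fold change 2.76, SE 0.91, edgeR adjusted p = 0.0492). Repopulated libraries averaged 2.71 ± 1.22 CPM and did not pass against wild type (log2 fold change 2.21, SE 0.91, edgeR adjusted p = 0.247) or control (-0.55, SE 0.93, adjusted p = 0.799).

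Wild-type 4 weighed on both differences from wild type for Cd69. Without it the log2 fold change was 5.08 for control (edgeR adjusted p = 0.000886) and 4.53 for repopulated (adjusted p = 0.0045). The call between control and wild type was lost in 13 of 19 alternatives, among them leaving out wild-type 1 (adjusted p = 0.1), wild-type 2 (0.0994), control 1 (0.159), control 2 (0.0843), control 3 (0.101), repopulated 1 (0.0718), repopulated 2 (0.0713) or repopulated 3 (0.0738). Markers of lymphocytes, in which Cd69 is best known, were read beside it. Those of NK cells summed to 0.674 to 2.36 CPM in wild type, 1.38 to 3.63 CPM in control and 1.59 to 2.83 CPM in repopulated libraries, with Ncr1 and Gzmb at 0 in every library, while Klrb1c of that list rose in both comparisons with wild type (edgeR adjusted p = 0.00394 and 0.0134). T cell markers summed to 37.2 to 48.3, 28.8 to 38.3 and 27 to 35.1 CPM, mostly Il7r, which fell between control and wild type. Cd3d and Cd3g were at 0 to 0.151 CPM in every library, and Cd5 rose 30.1-fold between control and wild type (edgeR adjusted p = 3.93e-05) and 19.5-fold between repopulated and wild type (adjusted p = 0.000281). The part of these cells in the Cd69 difference was not tested. Of the 11 tested genes of early activation and dissociation, Egr1 and Atf3 rose and Junb fell between control and wild type. For the summed list of 12, every library of 5xFAD mice was above every wild-type library. This sum leaned on Atf3, at 12.1 to 15 CPM in wild type, 36.5 to 41.3 CPM in control and 23.4 to 25.4 CPM in repopulated libraries. The median log2 fold change of the 11 tested genes was -0.22 between control and wild type, against -0.06 over all tested genes. Between repopulated and wild type it was 0.32, against -0.02. The list summed to 86.1 to 100 CPM in wild type, 103 to 121 CPM in control and 109 to 132 CPM in repopulated libraries. Its part in the Cd69 difference was not tested.

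Clec2d encodes a ligand of the inhibitory receptor Klrb1b rather than a receptor for sugars (Entrez 93694, chromosome 6, 129180615 to 129186535, plus strand). It had 0, 9, 0 and 3 counts in the wild-type libraries, 0, 3 and 2 in the controls and 7, 1 and 4 in the repopulated libraries, too few for the filter. With no filter none of the comparisons passed (edgeR adjusted p = 0.844, 0.872 and 0.985), and a difference was not detectable at this depth.

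The partners of these receptors were described next. Of 9 genes for described protein ligands and partners, 8 were tested, and 3 rose and 0 fell between control and wild type (background 10.1% and 8.04%). Anxa5, an annexin of the kind that Clec7a binds on dying cells, was 4.55-fold higher, at 308 ± 24.7 CPM against 67.6 ± 18.6 CPM (edgeR adjusted p = 2.78e-06). Vim, which encodes vimentin, was 4.98-fold higher, at 6.74 ± 0.994 CPM against 1.35 ± 1.14 CPM (edgeR adjusted p = 0.00849). Klrb1b, the receptor for Clec2d, was at 0, 0.19, 0 and 0.854 CPM in wild type and at 11.2, 6.2 and 12.1 CPM in control, a rise on the log2 scale of 5.18 (edgeR adjusted p = 0.000356).

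Anxa5 and Klrb1b were also higher in repopulated than in wild-type microglia, 3.42-fold and 18.4-fold (edgeR adjusted p = 3.77e-05 and 0.00396). With only the libraries that had Y-linked transcripts, Klrb1b lost both calls (adjusted p = 0.0569 and 0.102) and Vim lost its call (0.131). Lgals9, a described ligand of Clec7a, Lgals1 and S1pr1, described partners of Cd69, Icam2 and Anxa1 passed in no comparison. Between control and wild type their log2 fold changes ran from -0.32 for Lgals9 to 0.50 for Icam2. Klrb1f was not tested, with at most 0.19 CPM. None of the 8 tested partners was called between repopulated and control.

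Among 47 tested signalling genes downstream of these receptors, 11 fell between control and wild type, among them kinases and transcription factors, and 4 rose, the 3 adaptors and the kinase Fgr. Over all tested genes 8.04% fell and 10.1% rose, so the share that rose was not above the background. The median over the 47 was -0.26 on the log2 scale, against -0.06 over all tested genes. Tyrobp, the adaptor known as DAP12, rose 2.49-fold, to 1786 ± 493 CPM against 717 ± 122 CPM (edgeR adjusted p = 0.000223). Control 2 had 1218 CPM of Tyrobp, against 2093 and 2048 CPM in control 1 and 3. With control 2 as the only control its log2 fold change was 0.78, against 1.32 in the full fit. Hcst, the adaptor DAP10, rose 2.85-fold, to 27 ± 2.31 CPM against 9.5 ± 2.37 CPM (edgeR adjusted p = 0.000134). Fcer1g, the Fc receptor gamma chain, rose 1.52-fold (edgeR adjusted p = 0.0176) and the Src family kinase Fgr rose 3.46-fold (adjusted p = 0.0192). In 5 and 6 of 20 alternatives these calls were lost. For Fgr the groups overlapped, with 12.2 CPM in wild-type 3 and 11.8 CPM in control 2. With control 2 as the only control the log2 fold change of Fgr was 0.91, against 1.79 in the full fit.

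Syk, the kinase that Clec7a, Tyrobp and Fcer1g recruit, had 127, 94.6, 76.1 and 133 CPM in wild type and 59.6, 57 and 64 CPM in control, a 1.79-fold fall (log2 fold change -0.84, SE 0.18, edgeR adjusted p = 0.0055). Every control library was below every wild-type library. Other genes that fell were the protein kinase C delta gene Prkcd (1.47-fold), the phospholipase Plcg1 (2.03-fold) and the NF-kappa-B genes Rel (1.5-fold) and Nfkb1 (1.38-fold), with edgeR adjusted p from 0.0105 to 0.0261. Without control 1 these 4 lost their calls (adjusted p = 0.0511 to 0.124), and 3 of the 47 genes were called then, against 8 without wild-type 4 and 15 in the full fit. Inpp5d, the phosphatase SHIP1, fell 1.4-fold (edgeR adjusted p = 0.0425), a call lost in 12 of 20 alternatives, and the phosphatases Ptpn6 and Ptpn11 did not pass. With control 2 as the only control, 4 of the 47 genes were called.

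No gene of the 47 was called by edgeR between repopulated and control, while 18 had an unadjusted p under 0.05 (2317 of all 12505 genes tested), DESeq2 called 3 and limma-voom 0. The median log2 fold change was 0.24, against -0.00 over all tested genes. Syk had 98.1, 106 and 80.1 CPM in the repopulated libraries, all above the controls (log2 fold change 0.65, SE 0.19). Against wild type only Tyrobp and Hcst were called, both higher, by 1.36 and 1.13 on the log2 scale (edgeR adjusted p = 0.000375 and 0.0035), and the median was 0.01 against -0.02.

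**Figure D5:**
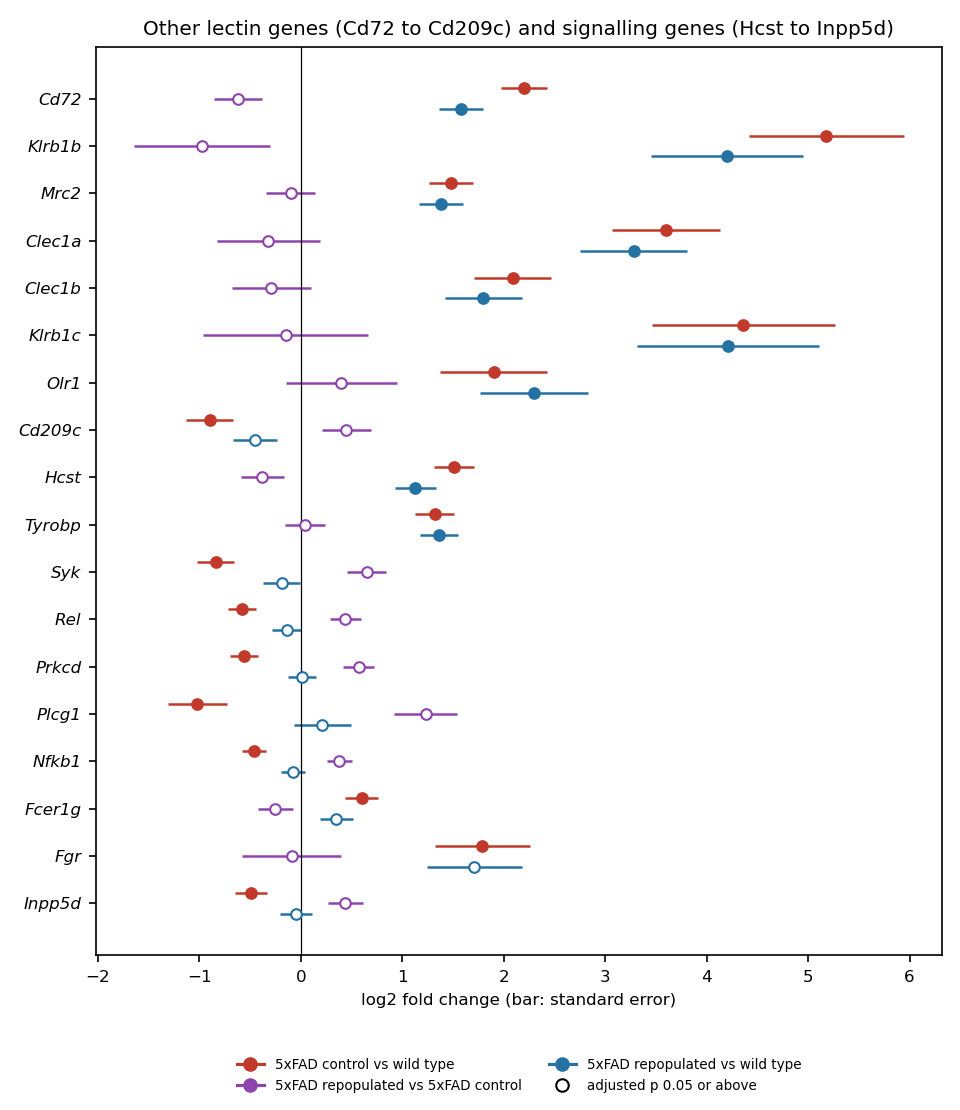
log2 fold change (x axis) with its standard error of named genes from the list of other C-type lectins and the signalling list (y axis) in the 3 comparisons; open symbols have an edgeR adjusted p of 0.05 or more. Tyrobp and Hcst lie to the right of 0 in both comparisons with wild type, and Syk lies at -0.84 between control and wild type.

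Outside the 9 genes, 64 other C-type lectin genes of 67 listed were in the table and 34 were tested. Between control and wild type 8 rose and 1 fell, beside the background of 10.1% and 8.04%, and their median log2 fold change was 0.60. Cd72, an inhibitory coreceptor best known from B cells, had 21.9, 20, 41 and 35.3 CPM in wild type and 149, 105 and 153 CPM in control, a 4.6-fold rise (log2 fold change 2.20, SE 0.23, edgeR adjusted p = 1.13e-05). The collagen receptor gene Mrc2 rose 2.8-fold (edgeR adjusted p = 0.000362), Clec1a 12.1-fold (0.000371) and Clec1b, the podoplanin receptor CLEC-2, 4.26-fold (0.00158). Klrb1a, Klrb1b, Klrb1c and Olr1 were the other genes that rose. The call of Olr1 was lost in 6 of 19 alternatives, with an adjusted p of 0.171 without control 1 and 0.0512 without wild-type 4, and its call in repopulated microglia in 5 of 19. Cd209c fell from 23.2 ± 6.13 to 12.4 ± 2.09 CPM, 1.87-fold (edgeR adjusted p = 0.0127), the only lectin of this list to do so, and without control 3 its adjusted p was 0.0581.

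Between repopulated and wild type 7 of the 34 rose, which were these genes other than Klrb1a, and 0 fell (background 3.4% and 0.784%). Cd72 had 83.1, 83.5 and 98.9 CPM in the repopulated libraries, 3-fold above wild type (edgeR adjusted p = 0.000477) and below every control library. No gene of the 34 was called between repopulated and control by edgeR, DESeq2 or limma-voom, while 3 had an unadjusted p under 0.05 in edgeR (2317 of all 12505 genes tested), and the median was -0.54 against -0.00. With only the libraries that had Y-linked transcripts, 3 of the 34 were called in each comparison with wild type.

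On chromosome 6 lie 8 of the 9 lectins, and their neighbours there were read beside them. In the stretch that holds Clec4a1, Clec4a3 and Clec4a2, the other genes Clec4a4 and Clec4b1 passed in no comparison. The stretch from Clec2d to Clec7a (129180615 to 129472785, 292 kb) also holds Cd69 and Clec12a and 4 genes outside the 9: Clec12b, not tested, Clec9a, which was not called in any comparison, and Clec1b and Clec1a, which rose in both comparisons with wild type. Clec1b lost its call in repopulated microglia without repopulated 3 (edgeR adjusted p = 0.0877). Clec1a had 1.16, 1.38, 0.0486 and 2.11 CPM in wild type, 11.9, 18.3 and 12.8 CPM in control and 9.35, 13.1 and 12 CPM in the repopulated libraries. Of the genes of this stretch Clec7a, Cd69, Clec1a and Clec1b rose between control and wild type, and none fell. The background in this comparison was 10.1% of all tested genes that rose and 8.04% that fell. Between repopulated and wild type 3.4% of all tested genes rose. The ends of the stretch were set by the chosen lectins, and the Cd69 call was lost in 13 of 19 alternatives. Clec9a was at 2.21 ± 0.683 CPM in control against 0.498 ± 0.446 CPM in wild type without overlap and missed the threshold (edgeR adjusted p = 0.055).

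For each lectin with a call, the 3 genes of most similar profile were found by the root mean square difference of log2 CPM, centred on each gene's mean, over the 10 libraries. For Clec7a, whose own profile had a root mean square span of 2.04, these were Cox6a2 (difference 0.33), Flt1 (0.34) and Cd200r4 (0.35). Clec4a2 (span 0.50) was nearest to BC035044 (0.15), Gimap9 (0.18) and Gipr (0.18), and Clec4a3 (span 0.47) to Gatm (0.14), Cysltr1 (0.15) and Ms4a6b (0.15). For Cd209a (span 1.34) the nearest were 3 lectin genes, Clec4a4 (0.80), Klra2 (0.87) and Cd209f (0.88), and for Cd69 (span 1.96) Gna14 (0.72), Lmbrd2 (0.76) and Rragd (0.80). Relative to the span, the set of Cd209a was the farthest from its lectin. Clec4a4 and Klra2 were also near the floor, with group means of 0.187 to 1.1 CPM and 0.22 to 1.15 CPM, and passed in no comparison. These distances are descriptions of the same 10 libraries, which share depth and grouping.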

How the data were processed

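RNA from sorted microglia of 10 mouse hippocampus samples was measured. The deposited table lists 19782 genes, each with 3 kinds of value in every library. The deposited estimated counts (expected counts), per the file headers, are not normalized, and 20.1% of nonzero values were not whole (tolerance 0.001). The deposited FPKM, per the file headers, were not used. Levels between genes were compared in the deposited TPM, which per the file headers account for length and depth. HISAT, Bowtie2 and GRCm38.p6 are named in the submitters' processing notes; the quantifier is not given in the sources used here.

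Rounded estimated counts went into edgeR 4.0.16 (R 4.3.3) with filterByExpr, TMM and 1 robust quasi-likelihood fit of all 10 libraries in 3 groups. Values of p were adjusted by Benjamini-Hochberg over 12505 genes and called at 0.05. CPM are unrounded counts scaled by TMM. The biological coefficient of variation was 27.3%, and totals of 18501136 to 23286814 limit genes under about 1 CPM most. The test was run on simulated data beforehand. Alternatives were DESeq2 (1.42.0) factors and test, upper-quartile factors, limma-voom (limma 3.58.1), no filter, 5 CPM in 3 libraries, each library left out, only the compared groups, a replicate block, a term for Y-linked transcripts (present above 50 CPM of unscaled totals) and only the libraries that had them. The last leaves control 2 alone in its group, assumed to vary like the other groups.

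The 9 genes and the lists were chosen with earlier results of these data known. Named genes are the 9, up to 8 called genes with the lowest p from each list, all partners, called neighbours, and the 3 nearest profiles of each called lectin. The other genes of the Cd209 group, Mrc1, Mgl2, Clec10a, Klrb1a, Ptpn6, Ptpn11, Clec4b1, Clec9a, Clec12b and the marker genes were named after values were seen. Entrez identifiers of 19725 genes matched RefSeq on GRCm38.p6, which gave positions and promoters. A result that the rule for named genes would add is not reported here.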

Additional observations from a re-analysis of the deposited data

Results flagged for a closer look

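A wild-type library lay far from the other 3 in 2 of the 35 genes examined in that group, by the gap to the nearest library as a share of the whole range (Dixon's ratio, at its 95% critical value). Clec7a was 72.7 CPM in wild-type 3 against 27 to 31.3 CPM in the others, a ratio of 0.906. Cd69 was 1.98 CPM in wild-type 4 against 0 to 0.237 CPM, a ratio of 0.88. Chance alone flags about 1 in 20 groups of this size.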

How the results depend on the processing

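Of 477 recomputed fold changes of the lectins, 402 kept direction and side of the threshold, 42 lost and 15 gained a call, and 18 changed sign, none of these called; the cause of a change was not tested. Lectins called between control and wild type numbered 4, 2 with only Y-positive libraries and 2 to 4 with a library left out. Between repopulated and control they numbered 1, 0 with limma-voom, no filter or the Y-linked term, 2 with only the compared groups and 0 to 2 with a library left out. Between repopulated and wild type they numbered 4, and 1 to 5 with a library left out. Other lectins numbered 9 (3 with only Y-positive libraries, 7 to 10 with a library left out), 0 (1 with only the compared groups) and 7 (3 with only Y-positive libraries, 5 to 7 with a library left out). Signalling genes numbered 15 (6 with the replicate block, 8 with the Y-linked term, 4 with only Y-positive libraries, 3 to 17 with a library left out), 0 (3 with DESeq2 or only the compared groups, 2 with only Y-positive libraries, 0 to 3) and 2 (2 to 3). Neighbours numbered 2 in both comparisons with wild type (2 to 3 and 1 to 2 with a library left out, and 1 for repopulated with the block or only Y-positive libraries). Signs changed for Clec12a (control against wild type, 0.03 with only Y-positive libraries; repopulated against control, 0.00 with upper-quartile factors, 0.15 with limma-voom, 0.03 with the replicate block, -0.29 to 0.63 with a library left out), Clec4a2 (repopulated against control, -0.04 with the Y-linked term, -0.36 with only Y-positive libraries, -0.08 to 0.36), Clec4a3 (repopulated against control, -0.19 to 0.14), Cd69 (0.09 there with only Y-positive libraries) and Clec5a (repopulated against wild type, 0.03 with only Y-positive libraries, -0.22 to 0.05).

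Over all genes, 2264 were called between control and wild type, against 1464 with the block and 1201 with only Y-positive libraries. For repopulated against control 71 were called, against 698 with DESeq2, 630 with only the compared groups, 388 with only Y-positive libraries, 166 with no filter, 125 with limma-voom or the stricter filter, 25 with the block, 1 with the Y-linked term and 0 to 328 with a library left out. For repopulated against wild type 523 were called, against 780 with DESeq2 and 289 with only Y-positive libraries. Same-numbered libraries did not deviate together over all tested genes (correlations of -0.105 to 0.071), which gave no sign that the numbers pair them. A pairing that affects only part of the genes could be missed. With the replicate block 5, 1 and 6 lectins were called, with Cd209a passing between control and wild type (1.14, edgeR adjusted p = 0.0244).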
